A study of Arabidopsis thaliana with 54 samples.

Results

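The genes described here were at their highest in the last harvest of the light period whatever the day length. They were chosen from the counts themselves: an identifier on nuclear chromosomes 1 to 5 was a member if its CPM (counts per 1000000 counts of the library without spike-in RNA) averaged at least 30 over the 54 libraries, if its highest group mean was at least 2 times its lowest within each photoperiod, and if the highest group was ZT08 in short day (SD), ZT12 in equinox (EQ) and ZT16 in long day (LD). ZT is the number of hours from dawn. Of 32548 nuclear identifiers, 2806 reached 30 CPM and 63 of these met the whole rule. Since the peak times and the ratios chose the members, they are given below as a description and were not tested. Tests were made only between photoperiods, which the rule did not compare. Those at last light and of the fall after dusk still use the groups that had to be highest. The average over the day includes these groups. The tests at last light and of the fall also set different times of day against each other. Last light was ZT08, ZT12 or ZT16, and the fall ran to ZT12, ZT16 or ZT20. In these tests photoperiod and time of day cannot be told apart.

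The libraries came from whole Arabidopsis thaliana Col-0 seedlings, roots included, harvested at an age of 12 days by the labels. All groups shared the growth medium and the first 10 days, in 12 h light and 12 h dark. They differed in the last 2 days, spent in 8 h light (SD), 12 h light (EQ) or 16 h light (LD), and in the harvest time, every 4 h from ZT00 to ZT20, with 3 replicates in each of 18 groups. Each replicate pooled about 50 seedlings of 1 plate, so the p-values measure the spread between plates of one experiment. The ZT00 harvest was labelled dark and the last-light harvests were labelled light. The day of an SD seedling thus held 2 light harvests, that of an EQ seedling 3 and that of an LD seedling 4. In such bulk samples, fewer cells of a type and less RNA per cell cannot be told apart. Values below are means ± standard deviation over 3 replicates unless said otherwise.

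In the light, a seedling fixes carbon, fills its starch store and makes amino acids and secondary metabolites. At dusk, photosynthesis stops and the store is spent at a pace that carries the plant to dawn. UDP-glycosyltransferases, which 7 of the member loci carry on one strand or the other, attach a sugar to small molecules such as flavonols, phenolic acids and hormones, which changes how these are stored and how active they are. Other members belong to the synthesis of serine and tryptophan, to the interconversion of sugar phosphates, to the chloroplast envelope and its electron transport, to protein folding and to stress responses.

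Library totals ran from 2430049 to 4124570 counts, with a median of 3280060, and the members' mean counts per library ran from 101 to 8552. Root-enriched genes and genes of light harvesting and Rubisco were both detected, all 4 of 4 and 19 of 19 listed genes, which fits the label of whole seedlings. CPM depended on what else was in a library: the TMM scaling factor, by which edgeR corrects a library's total, averaged 0.797 at ZT08 in LD, 0.905 at ZT08 in SD and 1.11 at ZT16 in LD. Setting last light in SD against last light in LD by CPM alone therefore carried a shift of -0.30 on the log2 scale against the TMM scale, and the same contrast of SD with EQ a shift of -0.23. The fitted changes below are on the TMM scale, and the CPM are not.

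Membership moved with that scaling. On CPM with TMM-corrected totals 40 genes met the rule, and 33 of them were among the 63. Of the 63, none changed its peak time in SD under that scaling, 9 did so in EQ and 21 in LD, 11 of the latter to ZT12. A further 6 kept their peaks but fell under the ratio of 2. Among members named below, the LD peak moved to ZT12 for AT1G05562, AT3G46668, AT2G41178, AT1G08645, AT2G04145, RDUF1, NAC102 and ERD10. It moved to ZT08 for SVB, AT5G01255 and UGT84A3. The EQ peak moved for UGT84A3, THI1 and AT5G27950. EMB3119, AT3G01505, AT2G08340 and RPI2 fell under the ratio. The members closest to the limits were ERD10, a dehydrin, at 30.3 CPM and AT3G46650 at 31.2 CPM, against 29.6 CPM for HTB2 and 28.2 CPM for CYP98A8 outside. For the smallest of the 3 ratios they were AT4G29390 at 2.02 and AT5G01255 at 2.03, against 1.99 for AT5G27430 and 1.98 for AT4G30845 outside.

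**Figure D1:**
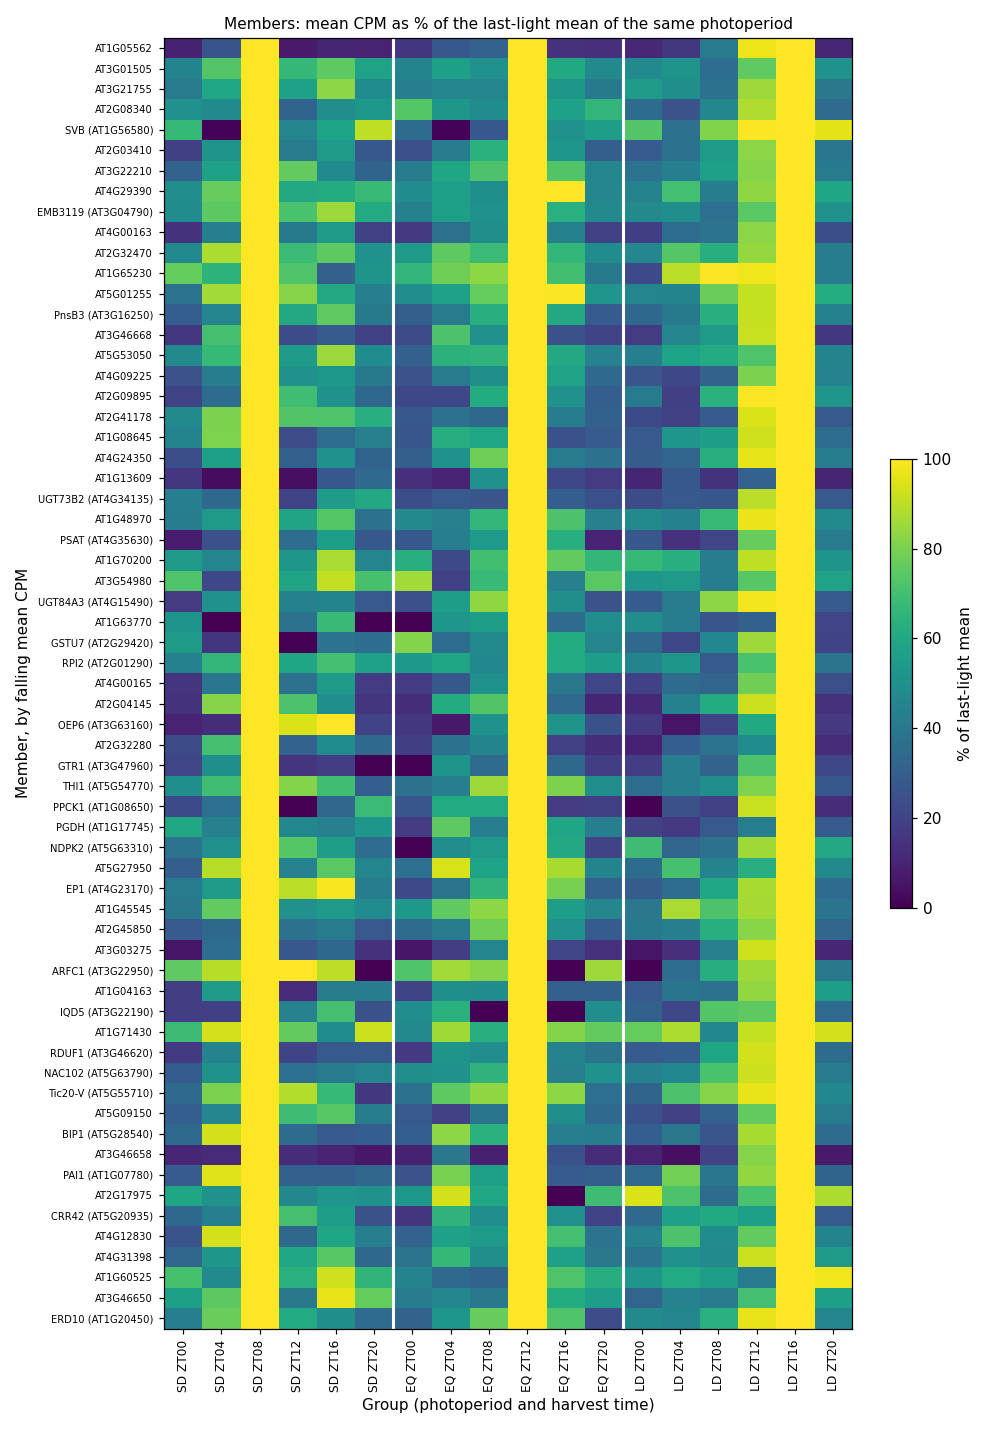
Mean CPM of the 63 members (rows, by falling mean CPM) in the 18 groups (columns), as a percentage of the member's own last-light mean in the same photoperiod. The columns SD ZT08, EQ ZT12 and LD ZT16 are at 100 by the rule; in LD the ZT12 column is the next brightest, with a median of 84.0%.

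Many members share their stretch of DNA with a gene on the other strand. Of the 63, 53 overlapped an annotated gene on the opposite strand, a share of 84.1% against 86.0% of all genes of at least 30 CPM. The kit was not described as keeping strand while the alignment was run with a strand setting, so reads from a gene and its opposite-strand partner cannot be told apart here. Of the members, 47 were protein-coding and 16 were long noncoding RNAs (lncRNA), each of these 16 lying opposite a protein-coding gene. When each of the 53 was summed with the genes that overlap it, 42 sums were still highest at last light in all photoperiods and 33 met the whole rule. Each sum holds the member itself, and the main partner had the lower mean CPM for 35 of the 53. Many sums thus keep the member's peak by construction. In 6 cases both partners were members, so the 63 members stand for 57 loci, and each such pair enters the sums under both members. The main partner is named beside the members described below where it had at least 1 CPM.

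The remaining 10 members had no annotated partner on the opposite strand: AT1G13609 (defensin-like), UGT73B2, UGT84A3, OEP6, THI1, AT5G27950 (a P-loop nucleotide hydrolase), EP1, BIP1, PAI1 and ERD10. The promoters of 3 of them are shown because the tests below turn on these genes: OEP6 and THI1, whose fall after dusk differed between photoperiods, and UGT73B2, a glycosyltransferase counted without a partner. Each window runs from 250 bases before to 50 bases after the annotated start, 5′ to 3′ on the strand of the gene, cut from the RefSeq TAIR10.1 genome. Capitals mark matches on either strand to AAAATATCT (the evening element), TTGACC (W-box core), TGACG (the core bound by bZIP factors) and GATAAG (I-box core).
OEP6: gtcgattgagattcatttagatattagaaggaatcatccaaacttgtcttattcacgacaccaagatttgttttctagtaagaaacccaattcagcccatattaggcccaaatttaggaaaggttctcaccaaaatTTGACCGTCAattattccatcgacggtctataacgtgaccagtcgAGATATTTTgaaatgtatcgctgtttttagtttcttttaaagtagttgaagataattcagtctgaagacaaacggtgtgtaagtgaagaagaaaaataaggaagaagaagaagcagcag
THI1: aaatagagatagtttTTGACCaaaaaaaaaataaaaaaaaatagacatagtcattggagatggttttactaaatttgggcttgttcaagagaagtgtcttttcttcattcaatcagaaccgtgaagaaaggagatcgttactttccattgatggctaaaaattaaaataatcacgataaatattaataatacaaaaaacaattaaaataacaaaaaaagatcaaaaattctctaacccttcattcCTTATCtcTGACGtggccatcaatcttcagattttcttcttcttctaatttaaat
UGT73B2: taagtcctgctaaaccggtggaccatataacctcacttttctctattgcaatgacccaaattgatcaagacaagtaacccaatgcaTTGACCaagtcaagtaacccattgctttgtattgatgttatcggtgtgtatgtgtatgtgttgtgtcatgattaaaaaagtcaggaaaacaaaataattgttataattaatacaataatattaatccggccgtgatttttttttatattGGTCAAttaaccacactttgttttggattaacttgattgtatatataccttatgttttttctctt

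The windows lie at chr3:23333985-23334284 (OEP6, minus strand), chr5:22246269-22246568 (THI1, plus strand) and chr4:16347385-16347684 (UGT73B2, minus strand). OEP6 was the one member with an evening element, and its W-box core and TGACG on the opposite strand overlap. Over all 63 windows the shares are given against those of the 2805 windows of genes of at least 30 CPM. TGACG was in 28.6% of member windows against 25.6%, GATAAG in 17.5% against 17.1%, TTGACC in 15.9% against 14.2%, and AAACCCTA, the telobox, in 6.35% against 5.13%. AAAATATCT was in 1.59% against 2.71%, AAAAATCT, bound by the clock factor CCA1, in 3.17% against 6.38%, and CACGTG, the G-box, in 1.59% against 6.60%. The ER stress element ERSE-I was in no member window and in 0.820% of all. A match is a run of letters, not a shown binding site, and the list of motifs was drawn up with the members known.

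Seen from last light, the members rose and fell as follows. At 4 h after last light, their median level was 46.7% of the last-light mean under SD, 51.7% under EQ and 39.6% under LD, while genes of at least 30 CPM stood at a median of 113%, 109% and 101%. At dawn (ZT00), after 16 h, 12 h and 8 h of dark, the medians were 34.5%, 30.5% and 33.6%. ZT00 was also the most frequent lowest harvest, for 34 members under SD, 30 under EQ and 24 under LD. At 4 h before last light, the median was 51.6% in SD and 53.6% in EQ but 84.0% in LD, so in LD the high level was in place at ZT12 for most members. In SD, the median at ZT16 was 54.7% of last light, above the 46.7% at ZT12. The 3 replicates of last light all lay above the 3 of the second-highest time for 36 members under SD, 45 under EQ and 18 under LD, and the share of such genes among all of at least 30 CPM was 23.2% under SD, 25.4% under EQ and 20.5% under LD. All these values belong to the contrast that chose the members. The percentages are ratios of CPM, so their order between photoperiods carries the scaling shift. The mean TMM factor at last light and 4 h later was 0.905 and 1.07 in SD, 1.06 and 1.19 in EQ, and 1.11 and 1.09 in LD. At 4 h before last light it was 0.894, 0.862 and 1.04. On the TMM scale the members' median log2 difference in the fall was 0.03 (SD against LD), -0.21 (SD against EQ) and 0.39 (EQ against LD).

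**Figure D2:**
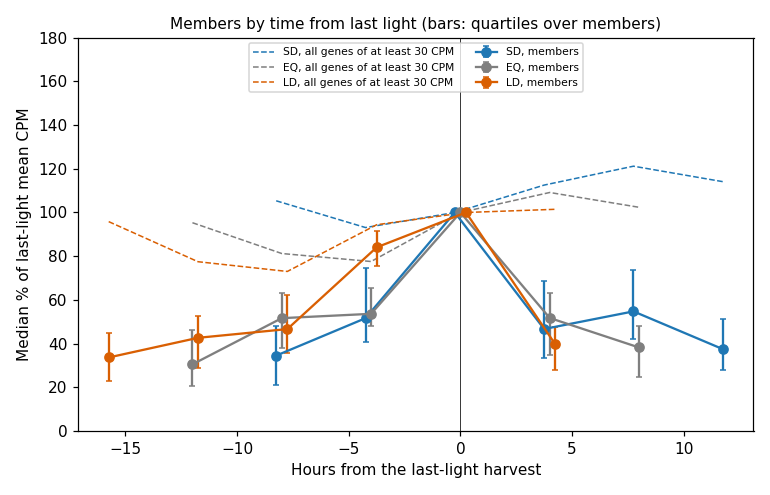
Median level of the 63 members (points joined by solid lines, bars from the lower to the upper quartile over members) as a percentage of the last-light mean CPM, against hours from the last-light harvest, with the median of all genes of at least 30 CPM dashed. At 4 h before last light LD stands at 84.0%, SD at 51.6% and EQ at 53.6%. At 4 h after it the medians are 39.6%, 46.7% and 51.7%. All are ratios of CPM without TMM scaling, which shifts the order between photoperiods.

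Whether the members' level over the whole day depended on photoperiod was asked by comparing the average of the 6 harvests. Members were lower in SD than in LD: 33 of 63 were lower and 1 was higher at an edgeR adjusted p under 0.05. Of all 14115 genes tested, 12.0% were called, 6.23% as lower in SD and 5.78% as higher. The median log2 change of the members was -0.50, with quartiles of -0.78 and -0.29, against a median of -0.06 over all genes, and 60 of the 63 fitted changes were negative. Of the 10 members without a partner, 7 were lower in SD, and of the 57 loci counted once, 30 were lower and 1 was higher. Of the 33 members that met the rule on TMM-scaled CPM, 16 were lower and none was higher. This average covers a day with more light harvests in LD. In CPM without TMM scaling, the number of harvests at 50% of the last-light level or more had a median of 3 in every photoperiod. By that count 17 members had more such harvests in LD than in SD, 25 as many and 21 fewer. The mean TMM factor was 0.905 at ZT08 and 1.12 at ZT16 in SD, and 0.797 at ZT08 and 1.11 at ZT16 in LD. The harvests were not recounted on the TMM scale, so these counts do not show equal widths in SD and LD.

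EQ lay between the other photoperiods. SD was lower than EQ for 19 members and higher for 1, with 4.99% of all genes called, 2.18% as lower and 2.81% as higher, and a median change of -0.22. EQ was lower than LD for 16 members and higher for none, with 1.35% of all genes called, 0.836% as lower and 0.517% as higher, and a median of -0.23. These counts were less stable than that for SD against LD. Without replicate A, B or C of every group, the 20 calls of SD against EQ became 9, 14 and 8, and the 16 calls of EQ against LD became 4, 7 and 5, whereas the 34 of SD against LD became 29, 31 and 28.

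**Figure D3:**
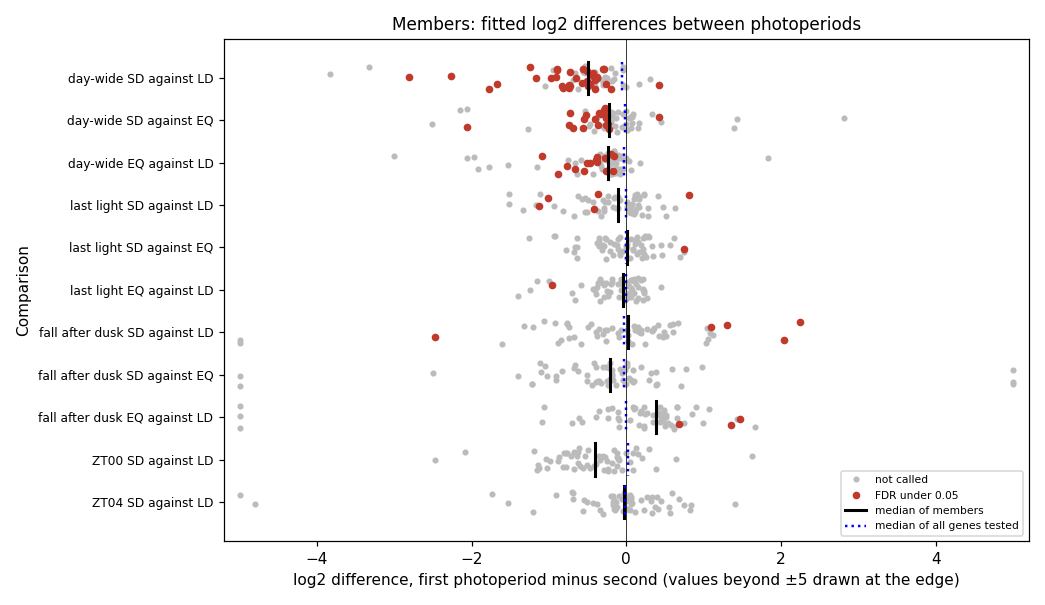
Fitted log2 differences of the members between photoperiods (first minus second) in each of 11 comparisons; red points passed an adjusted p of 0.05, black bars are the members' medians and dotted blue bars the medians of all genes tested. The day-wide medians of the members are -0.50, -0.22 and -0.23, those at last light -0.11, 0.00 and -0.04; 11 points beyond 5 on the log2 scale are drawn at the edge.

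At the peak itself, the difference between photoperiods depended on the scale. At last light, the median change of the members was -0.11 for SD against LD, 0.00 for SD against EQ and -0.04 for EQ against LD, all on the TMM scale. On the scale of CPM, which chose the members, the last-light medians were -0.41, -0.23 and -0.10, and that of the 6-harvest mean of SD against LD was -0.49. Of 63 members, 5 were called between SD and LD (3.08% of all genes, 1.98% as higher in SD and 1.1% as lower), 1 between SD and EQ (1.11% of all genes, 0.857% as higher in SD) and 1 between EQ and LD (0.623%, 0.34% as lower in EQ). The 4 that were lower in SD than in LD were AT2G41178, OEP6, EMB3119 and AT3G01505, the last 2 being partners at 1 locus, and AT5G01255 was higher in SD than in both. Without a replicate the 5 calls became 2 (A), 1 (B) and 2 (C), and the single calls of the other contrasts were lost without any one of the 3 replicates.

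At dawn, no member was called between SD and LD by edgeR, of 60 tested in a fit of these 6 libraries. At an unadjusted p under 0.05 there were 17 members, with 10.3% of all genes at that level. DESeq2 called 9 members. For DESeq2, here and at ZT04, no share over all genes is given, so its counts have no baseline. Of the 60, 50 were lower in SD, with a median of -0.40 against 0.02 over all genes, and edgeR called 0.143% of all genes. At ZT04, 4 h into the light, edgeR called no member of 59, 11 had an unadjusted p under 0.05 (7.91% of all genes), DESeq2 called 2, and the median was -0.03. edgeR called 0.0739% of all genes there.

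UDP-glycosyltransferase loci held 7 of the 63 members, 3 annotated as such and 4 as lncRNA opposite one. That is 11.1% of the members, against 1.71% of genes of at least 30 CPM counted the same way, a grouping made with the members known. All 7 were lower in SD than in LD over the day (6.23% of all genes), with log2 changes from -1.78 to -0.30, and the calls of AT3G46658 and AT3G21755 were lost without some replicates. Of these, 5 were also lower in SD than in EQ (2.18% of all genes) and 4 lower in EQ than in LD (0.836%). Each of the 5 calls was lost without at least 1 of the replicates, and of the 4, those of AT3G46650 and UGT73B2 were.

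AT1G05562 was the member with the most counts, at 2474 CPM. It is an lncRNA at chr1:1645300-1647435 whose whole length lies opposite exons of UGT75B1, a glycosyltransferase known to act on auxin. At last light it stood at 3855, 6740.2 and 4737 CPM under SD, at 5134, 6294 and 4663 under EQ, and at 11418, 7986 and 8124 under LD. At 4 h later the SD replicates were at 332, 466 and 330.4 CPM, those of EQ at 888, 697 and 698, and those of LD at 1118, 961 and 930.5. The 2 harvests do not overlap in any photoperiod. Over the day it averaged 1383 CPM under SD, 1799 under EQ and 4240 under LD. The log2 change was -1.78 ± 0.13 (standard error) for SD against LD, with an edgeR adjusted p of 5.24e-13, and -1.10 ± 0.13 for EQ against LD, with 1.52e-06. UGT75B1 averaged 683 CPM and was highest at ZT16 in SD and EQ and at ZT20 in LD, so this pair did not move together. On TMM-scaled CPM its LD peak was at ZT12.

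UGT73B2, which glucosylates flavonols, has no partner (chr4:16345150-16347434). Its last-light replicates were at 212, 298 and 171 CPM under SD, 461, 439.8 and 335 under EQ and 440.4, 435 and 411 under LD. After 4 h of dark they were at 69.7, 39.3 and 27.1 CPM under SD, 133, 105 and 134 under EQ and 119, 130.2 and 112 under LD. The values at 4 h after last light lay below those at last light in each photoperiod. In LD it was at 384 ± 64.4 CPM at ZT12 and 115 ± 23.3 at ZT08, and in EQ at 109 ± 15.0 at ZT08, so the high level was seen from ZT12 in both. Its day-wide change was -0.75 ± 0.09 for SD against LD (edgeR adjusted p = 1.23e-07).

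UGT84A3, which esterifies hydroxycinnamic acids with glucose, has no partner either. It was at 189 ± 33.9 CPM at last light under SD, 201 ± 10.3 under EQ and 221 ± 17.0 under LD, levels within a narrow range. Its day-wide change was -0.65 ± 0.10 for SD against LD (edgeR adjusted p = 7.15e-06). In EQ and LD its level was already 168 ± 26.5 and 184 ± 26.5 CPM at ZT08, and on TMM-scaled CPM ZT08 was its peak in all photoperiods.

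On chromosome 3, 3 members lie within neighbouring glycosyltransferase genes. AT3G46668 (chr3:17191668-17194444), opposite UGT76E11, was at 738 ± 117 CPM at last light under SD, 833 ± 52.5 under EQ and 1068 ± 37.3 under LD, and at 171 ± 25.8, 208 ± 15.6 and 173 ± 2.51 CPM at 4 h later. UGT76E11 itself averaged 5.96 CPM. AT3G46658, opposite UGT76E12, had last-light replicates of 74.8, 128 and 77.9 CPM under SD, 75.8, 85.3 and 36.3 under EQ and 40.7, 239.8 and 202 under LD. One LD replicate, at 40.7 CPM, was within the range of EQ. In the same LD libraries UGT76E12 was at 339, 54.4 and 48.1 CPM, so the partner was high where AT3G46658 was low. UGT76E12 averaged 73.7 CPM and was the higher of the pair in 44 of 54 libraries. Their sum met the whole rule. AT3G46668 was lower in SD than in LD over the day by a log2 change of -0.91 ± 0.07 (edgeR adjusted p = 5.46e-12). For AT3G46658 the change was -1.16 ± 0.39 (edgeR adjusted p = 0.0450), a call that was lost without any one replicate.

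The third of these neighbours, AT3G46650, is a glycosyltransferase gene overlapped over 1507 bases by LUX (listed as PCL1), a component of the evening complex of the clock. Its last-light replicates were at 46.9, 19.2 and 12.5 CPM under SD, 31.2, 77.3 and 35.7 under EQ and 140.1, 47.2 and 56.1 under LD, and they overlap between photoperiods. Over the day it averaged 19.4 CPM in SD and 46.6 in LD, a log2 change of -1.25 ± 0.19 (edgeR adjusted p = 4.29e-06). LUX averaged 87.2 CPM, was higher than AT3G46650 in 48 of 54 libraries, and was highest at ZT20 in SD and EQ and at ZT16 in LD. Summed, the pair was highest at ZT20 in SD. The remaining glycosyltransferase member, AT3G21755, lies opposite HYR1, which glucosylates the growth inhibitor hypostatin. AT3G21755 was at 1795 ± 90.9 CPM at last light under SD, 2617 ± 84.0 under EQ and 2363 ± 424 under LD. Its LD replicates were at 2046, 2845 and 2199 CPM, and HYR1 was at 808, 115 and 679 CPM in the same libraries. The partner was thus high where AT3G21755 was low. HYR1 averaged 197 CPM. AT3G21755 was lower in SD than in LD over the day by a log2 change of -0.30 ± 0.08 (edgeR adjusted p = 0.00889), a call that was lost without replicate B or C.

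**Figure D4:**
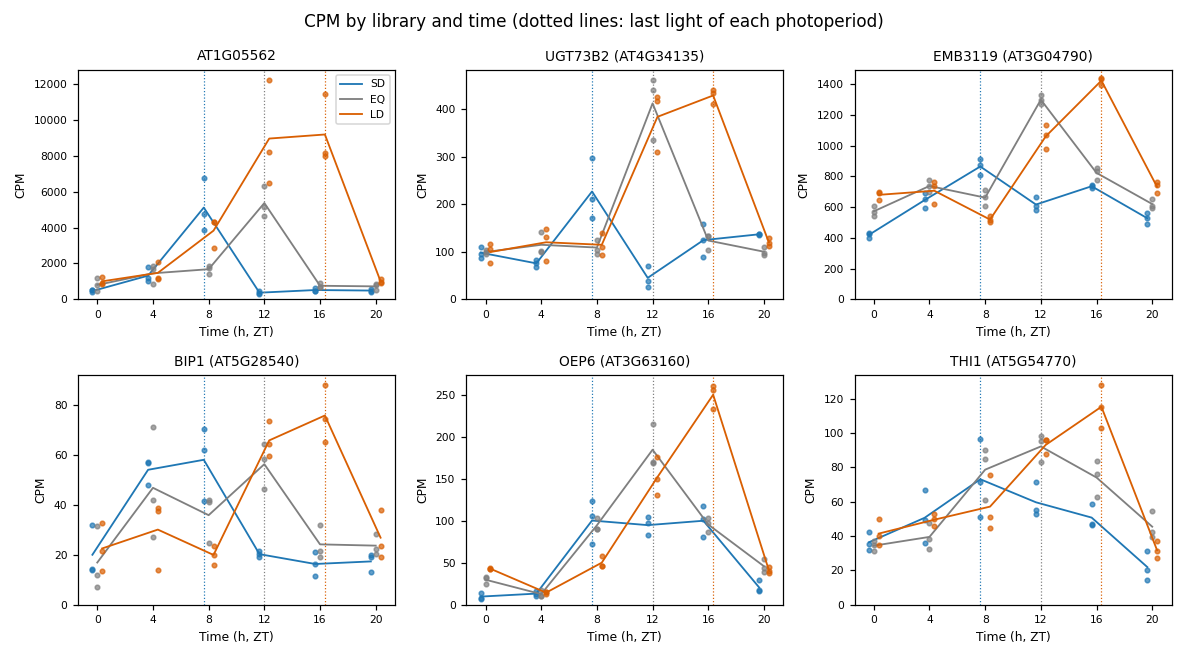
CPM of 6 members against time from dawn, with 1 point per library, lines through the means of 3 replicates and dotted verticals at last light (SD blue, EQ grey, LD orange). After 4 h of dark OEP6 and THI1 are at 94.9 and 59.6 CPM in SD (ZT12) and at 41.2 and 31.7 CPM in LD (ZT20). Photoperiod and time of day cannot be told apart in this comparison.

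Loci of enzymes of sugar phosphates and carbon entry held 5 members, at 3 loci. EMB3119 (chr3:1313297-1314288), a plastid ribose-phosphate isomerase that links the reductive and oxidative pentose phosphate pathways, was at 873, 807 and 915 CPM at last light under SD, 1300.2, 1270.0 and 1329 under EQ and 1394, 1443 and 1435 under LD. The SD replicates lay below all of EQ and LD. Its partner AT3G01505, an lncRNA of 235 bases inside it, was at 2135, 2018 and 2149 CPM under SD, 2970.0, 3026 and 2984 under EQ and 3286, 3348 and 3345 under LD. The ratio of partner to gene stayed between 2.14 and 2.44 in all 18 groups, so they gave 1 profile counted under 2 identifiers. EMB3119 fell by 0.40 ± 0.04 on the log2 scale over the day in SD against LD (edgeR adjusted p = 6.74e-10) and by 0.42 ± 0.10 at last light (0.00591). In CPM the last-light ratio was larger, since -0.30 of it is the scaling shift. The last-light call was lost without any one replicate.

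RPI2, a second ribose-phosphate isomerase, was at 111 ± 9.04 CPM at last light under SD, 138 ± 7.36 under EQ and 167 ± 5.89 under LD, with a day-wide change of -0.29 ± 0.07 for SD against LD (edgeR adjusted p = 0.00150; lost without A or C). It has 2 partners, AT2G03925 at 337 CPM and MEE65 at 194 CPM, both above its own 84.3 CPM. PPCK1, the kinase that phosphorylates phosphoenolpyruvate carboxylase and keeps it active, was at 104, 0 and 102 CPM at last light under SD, 128, 161 and 171 under EQ and 172, 155 and 124 under LD. It was at 0 in 20 of 54 libraries, including all 3 at ZT12 in SD, and was not called in any day-wide comparison. Its partner AT1G08645, itself a member with no library at 0, was lower in SD than in LD by a log2 change of -0.74.

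Zeros of this kind were frequent: 19 members had at least 1 library with no count and 5 had at least 20, although each averaged 30 CPM or more. GTR1, a glucosinolate transporter, shows it. Its last-light replicates were at 125, 0 and 111 CPM under SD, 184, 177 and 175 under EQ and 192, 233 and 211 under LD. Its partner AT3G07835 averaged 208 CPM and was the higher of the 2 in all 54 libraries. GTR1 averaged 26.9 CPM in SD and 101 in LD and did not pass the test (edgeR adjusted p = 0.0536). Of the 44 members without a library at 0, 31 were lower in SD than in LD over the day (6.23% of all genes) and 1 was higher (5.78%).

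Serine and tryptophan synthesis gave 4 members. PSAT, the aminotransferase of the plastid phosphoserine pathway, was at 223, 295 and 217 CPM at last light under SD, 332, 269 and 264 under EQ and 389, 368 and 461 under LD, and SD and LD do not overlap. At 4 h later it was at 154, 109 and 0 CPM in SD. Its partner AT4G09225, also a member, was lower in SD than in LD over the day by a log2 change of -0.50 ± 0.10 (edgeR adjusted p = 0.000426), while PSAT, at 0 in 9 libraries, gave -0.95 ± 0.70 (0.523). PGDH, the dehydrogenase that opens that pathway, was at 73.6, 65.6 and 36.9 CPM at last light under SD, 105, 73.5 and 84.5 under EQ and 162, 192 and 259 under LD, with LD above all others. It gave -1.05 ± 0.55 over the day (edgeR adjusted p = 0.261), and its partner AT1G17744 averaged 378 CPM against its own 54.5. PAI1, a phosphoribosylanthranilate isomerase of tryptophan synthesis without a partner, was at 45.4 ± 8.03 CPM at last light under SD, 64.0 ± 7.07 under EQ and 68.1 ± 10.8 under LD. PAI1 was lower in SD than in LD by -0.90 ± 0.10 (edgeR adjusted p = 1.95e-08), lower in SD than in EQ by -0.52 ± 0.10 (0.00114; lost without A or C) and lower in EQ than in LD by -0.38 ± 0.10 (0.0452; lost without any one replicate). The closely related PAI genes of this genome can share reads, so the level of PAI1 alone is uncertain.

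Chloroplast members differed in how they left the peak. OEP6, an outer envelope protein (chr3:23333399-23334034), was at 105, 72.6 and 123 CPM at last light under SD, 215, 170.0 and 169 under EQ and 261, 256 and 233 under LD. At 4 h later it was still at 82.6, 105 and 97.4 CPM under SD, at 97.0, 103 and 86.2 under EQ and at 37.9, 40.3 and 45.5 under LD. The SD harvests overlap, and the LD harvests are far apart. In SD it held 100.1 ± 18.2 CPM until ZT16 and fell to 20.6 ± 7.40 at ZT20. Its EQ replicates at ZT20 were at 54.5, 39.5 and 43.6 CPM, so it was lower at ZT20 than at ZT16 in every photoperiod. The fall after dusk was shallower in SD than in LD by a log2 difference of 2.24 ± 0.32 (edgeR adjusted p = 5.58e-06), which stayed called without each replicate, and shallower in EQ than in LD by 1.46 ± 0.32 (0.0117), which was lost without A or B. OEP6 was also lower in SD at last light, by -1.01 ± 0.23 (0.00455), a call lost without A or B, and over the day by -0.73 ± 0.09 (edgeR adjusted p = 1.88e-07).

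THI1, which makes the thiazole part of thiamine, was also lower at 4 h after last light in LD than in SD or EQ. Its replicates were at 96.7, 50.9 and 71.6 CPM at last light and 52.7, 71.3 and 54.9 at 4 h later in SD, at 95.4, 98.2 and 82.9 and then 83.5, 75.9 and 62.8 in EQ, and at 115, 103 and 128 and then 36.9, 31.2 and 27.0 in LD. The 2 harvests overlap in SD and EQ and are separate in LD. Its fall was shallower in SD than in LD by 1.30 ± 0.33 (edgeR adjusted p = 0.0185; lost without B or C) and in EQ than in LD by 1.35 ± 0.33 (0.0365; lost without any one replicate). On TMM-scaled CPM its EQ peak was at ZT08.

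Over all members, 5 differed between SD and LD in the fall after dusk (2.84% of all genes, 0.786% with a shallower and 2.05% with a steeper fall in SD), 3 between EQ and LD (0.645%, 0.0992% shallower in EQ) and, by edgeR, 0 between SD and EQ (0.29%). Without replicate A, B or C the 5 became 4, 3 and 2, and the 3 became 0, 1 and 1. In the last case 14 had an unadjusted p under 0.05, with 7.86% of all genes at that level. DESeq2 called 5 there, a count again without a share over all genes. AT2G01870 averaged 230 CPM and was higher than AT2G04145, the lncRNA opposite it, in all 54 libraries, and the sum of both missed the ratio of 2 in SD (1.89) and EQ (1.97). AT2G04145 was at 119.9 ± 10.6 CPM at last light and 86.6 ± 7.51 at 4 h later in SD, and at 183 ± 15.7 and 26.4 ± 3.06 in LD, a log2 difference of 2.04 ± 0.31 (edgeR adjusted p = 2.11e-05). AT4G00163, of unknown function and opposite the lipid-transfer-like gene AT4G00165, fell less in EQ than in LD by 0.68 ± 0.14 (edgeR adjusted p = 0.00723; lost without A or C). AT1G04163, an lncRNA opposite AT1G03100, went the other way: it was at 63.2 ± 16.3 and then 7.67 ± 2.02 CPM in SD and at 84.7 ± 12.9 and then 47.4 ± 4.22 in LD, a difference of -2.47 ± 0.57 (edgeR adjusted p = 0.00727; lost without A or C). AT1G03100 averaged 36.1 CPM and was the higher of the 2 in 24 libraries. AT1G04163 was also lower in SD than in EQ over the day, by -0.74 ± 0.16 (edgeR adjusted p = 0.00402; lost without A or C).

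PnsB3, a subunit of the chloroplast NDH complex that drives cyclic electron flow, was at 645 ± 75.9 CPM at last light under SD, 872 ± 51.4 under EQ and 787 ± 90.6 under LD, and was lower in SD than in LD by -0.38 ± 0.05 over the day (edgeR adjusted p = 1.27e-06). Its partner AT3G03275, also a member, was at 69.7 ± 14.4, 129 ± 18.3 and 124 ± 21.4 CPM, and was lower in SD than in EQ by -0.73 ± 0.15 (edgeR adjusted p = 0.00228; lost without C). The ratio of the 2 ran from 6.25 to 48.7 over the 18 groups, so they did not give 1 profile. DELTA-TIP, a vacuolar water channel that overlaps PnsB3 by 120 bases, averaged 2503 CPM and was highest at ZT00 in all photoperiods.

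Members tied to stress and protein folding rose with the others towards last light but did not all follow the day-wide order. GSTU7, a glutathione transferase, was at 127, 170.4 and 146 CPM at last light in SD and at 0 in all 3 libraries at 4 h later, against 86.4, 89.6 and 79.9 CPM in EQ and 0, 90.5 and 85.3 in LD. It averaged 60.2 CPM in SD and 149.9 in LD, and its fitted change of -2.81 ± 0.81 (edgeR adjusted p = 0.0153; lost without A or C) depends on the prior count, since a group at 0 enters it. Its partner AT2G08340 had no zero, was lower in SD than in LD by -0.73 ± 0.09 (edgeR adjusted p = 9.82e-08) and lower in EQ than in LD at last light by -0.96 ± 0.22 (0.0202; lost without any one replicate). AT1G13609, a defensin-like gene without a partner, was at 329, 195 and 121 CPM at last light under SD, 812, 488 and 493 under EQ and 377, 837 and 1018 under LD. In CPM every SD replicate was below those of EQ and LD, but on TMM-scaled CPM the highest SD replicate (351) was above the lowest of LD (331). Over the day, on the TMM scale, SD was lower than LD by -2.27 ± 0.32 (edgeR adjusted p = 1.42e-06) and lower than EQ by -2.06 ± 0.32 (3.62e-05).

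BIP1, the Hsp70 chaperone of the endoplasmic reticulum, was at 62.2, 41.4 and 70.6 CPM at last light under SD, 64.3, 58.4 and 46.2 under EQ and 88.0, 74.3 and 65.1 under LD, and at 21.4, 20.1 and 19.2, 31.8, 21.7 and 19.1, and 19.3, 23.4 and 37.9 CPM at 4 h later. Replicates of last light and of 4 h later do not overlap in any photoperiod, while the last-light levels of the photoperiods do. Earlier light harvests were not all above the dark ones. At ZT08 in LD, BIP1 was at 20.1, 16.0 and 23.7 CPM, which overlaps its ZT20 values. Its day-wide change of -0.40 ± 0.16 did not pass (edgeR adjusted p = 0.107). BIP1 and BIP2 are near-identical, so reads may be split between them. Of 16 listed genes of folding in the endoplasmic reticulum, 4 were highest at last light in all photoperiods: BIP1, BIP2 (26.6 CPM), the Hsp90 chaperone SHD (19.0 CPM) and the lectin chaperone CNX1 (16.3 CPM), the last 3 under the limit of 30 CPM. Of the 14 tested, 1 was lower in SD than in LD over the day (6.23% of all genes) and none was higher (5.78%). The 1 was BIP2, with a log2 change of -0.63 (edgeR adjusted p = 0.00187). No gene on the list of 23 cytosolic and organellar chaperones, or on that of 23 clock genes, was highest at last light in every photoperiod. For sulfate and nitrate assimilation 1 of 10 was, the APS reductase APR3 at 19.2 CPM. The share was 3.12% among all genes of at least 1 CPM and 6.20% among those of at least 30 CPM. Lists this short cannot show a share below that.

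RDUF1, a RING-type ubiquitin ligase of the drought response, was at 63.7, 103 and 70.9 CPM at last light under SD, 60.7, 63.5 and 47.9 under EQ and 99.4, 81.8 and 89.0 under LD, so every EQ replicate was below those of SD and LD, and SD and LD overlapped. It was lower in EQ than in LD by -0.89 ± 0.14 over the day (edgeR adjusted p = 0.000222; lost without A) and lower in SD than in LD by -0.82 ± 0.14 (3.12e-05). NAC102, a transcription factor of low-oxygen and stress responses, was at 65.8 ± 15.7 CPM at last light under SD, 52.2 ± 6.89 under EQ and 69.6 ± 7.98 under LD. Over the day NAC102 was lower in EQ than in LD by -0.55 ± 0.11 (edgeR adjusted p = 0.00553, lost without any one replicate). It was also called lower in SD than in LD over the day, a call lost only without C. Its partner SHA1 averaged 15.9 CPM. ERD10 and EP1 were not called in the day-wide comparison of SD with LD.

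AT5G01255 was the one member called higher in SD over the day. On TMM-scaled CPM its LD peak was at ZT08 and its smallest ratio 1.96, so it missed the rule on that scale. It is an lncRNA of 281 bases at chr5:1931292-1931572 that lies wholly within NHL3, a membrane protein gene induced by pathogens. Its last-light replicates were at 553, 917 and 972 CPM under SD, 514, 577 and 621 under EQ and 542, 593 and 593 under LD, so 2 SD replicates were above and 1 was within the others. At ZT04 it was at 701 ± 64.3 CPM under SD, 327 ± 105 under EQ and 261 ± 35.9 under LD. Over the day it was higher in SD than in LD by 0.42 ± 0.07 (edgeR adjusted p = 2.86e-05) and than in EQ by 0.42 ± 0.07 (0.000143), both kept without each replicate. At last light it was higher by 0.81 ± 0.17 (edgeR adjusted p = 0.00302; lost without B or C) and by 0.75 ± 0.17 (0.0157; lost without any one replicate). NHL3 averaged 229 CPM and was also highest at last light in all photoperiods, with 414 CPM under SD, 279.5 under EQ and 283 under LD. At ZT04 NHL3 was at 336 CPM under SD, 166 under EQ and 140 under LD, so both identifiers were higher in SD at that time. The sum of both missed the ratio of 2 in EQ (1.98). AT2G41178, opposite the sigma factor-binding gene SIB2 (6.99 CPM), went the other way at last light, at 199, 215 and 241 CPM under SD, 481, 438 and 403 under EQ and 539, 567 and 658 under LD, a change of -1.13 ± 0.22 for SD against LD (edgeR adjusted p = 0.000985; lost without A). Its fall after dusk was shallower in SD by 1.09 ± 0.31 (edgeR adjusted p = 0.0455; lost without any one replicate).

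The other members of high count were mostly of unknown role. AT2G03410, of the Mo25 family of kinase scaffolds, was at 1777 ± 131 CPM at last light under SD, 1931 ± 116 under EQ and 1945 ± 98.0 under LD, and at 738 ± 22.5, 1016 ± 56.8 and 763 ± 34.0 at 4 h later. Its partner AT2G03420 averaged 8.14 CPM. AT2G03410 fell day-wide from LD to SD by 0.42 ± 0.03 (edgeR adjusted p = 5.46e-12) and was not called at last light. AT4G00163 was at 1402 ± 18.2, 1701 ± 87.6 and 1661 ± 61.0 CPM at last light and changed by -0.41 ± 0.04 over the day (1.20e-09). AT3G22210, which overlaps POP2 (456 CPM) and AT3G04255 (217 CPM), was at 1458 ± 115, 1247 ± 108 and 1611 ± 42.5 CPM and changed by -0.26 ± 0.05 (edgeR adjusted p = 0.000380). AT4G29390, a ribosomal protein of the S30 family, had last-light replicates of 1624, 586 and 1390.3 CPM under SD, 1915, 993 and 772 under EQ and 2083, 898 and 912 under LD. Its partner VPS15 was at 17.8, 764 and 43.3 CPM in the same SD libraries, 90.8, 776 and 960.5 in those of EQ and 37.3, 1022 and 1042 in those of LD, so the partner was high where AT4G29390 was low. VPS15 was the higher of the pair in 33 libraries, and their sum missed the ratio of 2 in SD (1.63), EQ (1.93) and LD (1.93).

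SVB, a regulator of trichome branching, is another member whose counts and those of its partner changed places between libraries. Its last-light replicates in LD were at 28.0, 2797 and 2773 CPM, while PGN, a mitochondrial pentatricopeptide repeat protein gene that covers all 1123 bases of SVB on the other strand, was at 2652, 69.4 and 99.2 CPM in the same libraries. Their sum was 2680.0, 2866 and 2872 CPM. At ZT04 in SD, SVB was at 17.1, 10.2 and 8.29 CPM and PGN at 2322, 2155 and 2562. PGN was the higher of the 2 in 12 of 54 libraries. The sum was highest at ZT04 in SD and EQ, at 2358 and 2489 CPM, and at ZT16 in LD, at 2806 CPM, so the locus as a whole did not have the last-light pattern in every photoperiod. The day-wide call for SVB of -1.67 ± 0.48 (edgeR adjusted p = 0.0148) was lost without any one replicate.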

How the data were processed

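Poly(A) RNA from whole seedlings in 54 libraries was sequenced. The authors trimmed reads with Trimmomatic (version 0.39), aligned them to TAIR10 with HISAT2 (2.1.0) using a strand setting and counted genes with StringTie (2.1.2), per the methods and the submitters' processing notes. The deposited table holds raw counts per gene, with spike-in rows, which were left out of totals and tests. Gene models came from RefSeq TAIR10.1, which matched 32548 of 32833 identifiers.

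The edgeR quasi-likelihood test (4.0.16, TMM, filterByExpr with a minimum count of 10, Benjamini-Hochberg adjustment over all genes tested, threshold 0.05) was fitted over 54 libraries and 18 groups, or over 6 libraries at ZT00 and at ZT04. Standard errors are the log2 change divided by the square root of F. The code was tested on simulated counts. DESeq2 (1.42.0) was an alternative. The fall after dusk is the log2 change from last light to 4 h later.

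Members and gene lists were chosen with earlier results of these data known. Named genes were the 10 members of highest mean CPM, members in a list or opposite a listed gene, the 3 largest called changes in each direction per comparison, and 2 genes on either side of each limit. The others named (among them UGT73B2, UGT84A3, the chromosome 3 neighbours, RPI2, PPCK1, GTR1, PSAT, PGDH, PAI1, PnsB3, NAC102, EP1 and AT5G27950) and the groups by role were chosen after their values were seen. No 2 replicates differed by as little as sampling noise: chi-square per gene was 18.3 to 46.3.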

Additional observations from a re-analysis of the deposited data

Results flagged for a closer look

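Members whose fall over the 4 h after last light differed between photoperiods by a test of the difference itself are listed here with the log2 difference. The fall starts from the last-light groups, which the rule required to be highest. A fall in each photoperiod was therefore set by the choice of members, and only its size was compared. It ran from ZT08 to ZT12 in SD, ZT12 to ZT16 in EQ and ZT16 to ZT20 in LD. Photoperiod and time of day cannot be told apart in that comparison. Between SD and LD, the fall was shallower in SD for OEP6 (2.24), AT2G04145 (2.04), THI1 (1.30) and AT2G41178 (1.09), and steeper in SD for AT1G04163 (-2.47). Between EQ and LD, it was shallower in EQ for OEP6 (1.46), THI1 (1.35) and AT4G00163 (0.68). The call of AT2G41178 and that of THI1 for EQ against LD were lost without any one replicate. AT2G01870, opposite AT2G04145, was the higher of that pair in all 54 libraries. OEP6 and THI1 have no annotated gene on the opposite strand. All these differences are on the TMM scale; the same contrasts of CPM without that scaling carry a shift of 0.28 for SD against LD and 0.19 for EQ against LD.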

How the results depend on the processing

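The number of members was 40 on TMM-scaled CPM, 98 at a mean of at least 10 CPM, 30 at a ratio of at least 3, and 51 to 80 without 1 replicate of each group. Of the counts of members called, those without 1 replicate ran from 28 to 31 (day-wide SD against LD), 8 to 14 (SD against EQ), 4 to 7 (EQ against LD), 1 to 2 (last light SD against LD), 0 (last light, other contrasts), 2 to 4 (fall SD against LD) and 0 to 1 (fall EQ against LD). DESeq2's Wald test called 26 day-wide (EQ against LD), 8 and 7 at last light (SD against LD, SD against EQ), 10, 5 and 7 for the fall (SD against LD, SD against EQ, EQ against LD), 9 at ZT00 and 2 at ZT04. With a mean of at least 50 counts, 8 and 5 were called at last light, 8, 1 and 5 for the fall, 1 at ZT00 and 1 at ZT04, and with no filter 3 for the fall (SD against LD) and 1 at ZT04. Counts under another test, another filter or without a replicate stand without the share of all genes under that setting. They show how far the number called moves, and not whether members exceed other genes. Among the 10 members without an opposite-strand gene, 7, 6 and 2 were called day-wide, 1, 0 and 0 at last light and 2 for the fall (SD against LD). Among the 33 that met the rule on TMM-scaled CPM, 16, 10 and 6 were called day-wide, 1, 0 and 0 at last light and 2 for the fall (SD against LD), and among the 43 whose sum with opposite-strand genes met it, 0 at last light (SD against EQ) and 3 for the fall (SD against LD); these subsets hold fewer genes. They, and the subsets without zeros or with each pair counted once, were chosen after seeing the data.

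The letters A, B and C do not pair samples: deviations of same-lettered libraries had a mean correlation of -0.0004 over 459 pairs. With the letter as a replicate block, 33, 19 and 14 members were called day-wide, 5, 1 and 1 at last light and 4, 0 and 3 for the fall, and none at ZT00 or ZT04. Of 280 values of 35 single-gene results under alternatives, 237 kept direction and side of the threshold, 41 lost the call, 39 of them without a replicate, 1 gained it (BIP1 with a mean of at least 50 counts, -0.42) and 1 turned: AT4G29390 day-wide, -0.04 in all libraries, ran from -0.12 to 0.092 without 1 replicate. Over all comparisons, 37 of 85 calls of members were kept without each replicate in turn, and 5 were lost with the replicate block. The member with the fewest reads averaged 101 counts a library; the cause of the zeros was not tested.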

Other observations

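Of the 15 gene lists, the endoplasmic reticulum list held 4 genes that were highest at last light in every photoperiod. Sulfate and nitrate assimilation held 1, very-long-chain fatty acid and wax synthesis 1 (CER1, at 1.04 CPM) and the other 12 none. Of all genes of at least 1 CPM, 3.12% were highest at last light in every photoperiod. Day-wide, SD against LD by edgeR at an adjusted p under 0.05, 6.23% of all 14115 genes tested were lower in SD and 5.78% higher. The counts by list stand beside these shares, and no list was tested as a set. All 6 tested genes of the dark-induced and sugar-starvation list were higher in SD. Lower in SD were 7 of 19 genes for light harvesting and Rubisco, 5 of 16 for phenylpropanoid and flavonoid synthesis, 3 of 23 for glucosinolates, 3 of 10 for sulfate and nitrate, 3 of 8 for the methionine cycle, 2 of 22 for the clock, 2 of 16 for starch and sucrose, and 1 each of 22 cytosolic chaperones, 5 polyubiquitins, 11 wax genes and 3 root-enriched genes, with none higher in these lists. None of 8 cellulose and 10 plastid fatty acid genes was called in either direction.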
